A study of Mus musculus with 2 samples.

Results

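The genes examined were 9 that goblet cells use to make and secrete mucus: Muc2, Fcgbp, Clca1, Zg16, Spink4, Retnlb, Reg4, Tff3 and Agr2. They were chosen by symbol, and all 9 were found among the 32285 genes of the deposited tables. The tissue was mouse intestinal tumour raised by the AOM-DSS protocol, in which the mutagen azoxymethane (AOM) is followed by dextran sulfate sodium (DSS), a polymer in the drinking water that damages the gut lining. The cKO library came from mice with floxed Mtch2 alleles (Mtch2fl/fl) and the VilCre transgene, in which Cre acts from the Villin promoter in intestinal epithelium, and the WT library from Mtch2fl/fl mice without Cre. Both groups of mice received AOM-DSS, and neither age nor number of mice is given in the sources used here. Tumours were pooled within each genotype before dissociation, so each genotype is 1 library without replicates. Differences therefore carry no test, and every interval given covers counting error only. Villin is an epithelial gene, so stromal and immune cells are not targets of this Cre.

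The colon surface is covered by a mucus gel whose scaffold is the mucin Muc2, which goblet cells assemble in the endoplasmic reticulum, glycosylate, pack into granules and release. Other goblet cell proteins cross-link or trim the gel, bind bacteria, or act on the epithelium and on microbes. Goblet and Paneth cells are secretory relatives that arise under the transcription factor Atoh1, and a normal colon holds goblet but few or no Paneth cells.

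The members lie at separate places in the mouse genome (GRCm38, GENCODE release M21), and all are protein-coding. Muc2 (chr7:141690340-141754693, plus strand), Fcgbp (chr7:28071236-28120862, plus) and Zg16 (chr7:127050156-127087328, minus) are on chromosome 7. Clca1 (chr3:145003817-145032776, minus) and Reg4 (chr3:98222156-98236748, plus) are on chromosome 3. Spink4 (chr4:40920052-40931395, plus), Agr2 (chr12:35992907-36004087, plus), Retnlb (chr16:48816856-48818892, plus) and Tff3 (chr17:31125306-31129646, minus) are alone on theirs. Zg16 overlaps 2 noncoding genes on the other strand, Gm44939 and Gm22747, and no other member overlaps a gene.

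The RefSeq promoter table (GRCm38.p6) matched 4 of the 9 members, Muc2, Fcgbp, Reg4 and Agr2. It gives 300 bases around each start site. Those of Muc2, Reg4 and Agr2 are shown. The first 2 were chosen because they differed between the libraries in opposite directions within secretory cells. Agr2 was chosen because, after thinning, its detection in other epithelial-like cells exceeded that in immune cells in both libraries. Capitals mark exact matches, on either strand, to an E-box (CAGCTG), a forkhead site (TGTTTAC) or a TATA box (TATAAA).
Muc2 (chr7:141690090-141690389, plus strand): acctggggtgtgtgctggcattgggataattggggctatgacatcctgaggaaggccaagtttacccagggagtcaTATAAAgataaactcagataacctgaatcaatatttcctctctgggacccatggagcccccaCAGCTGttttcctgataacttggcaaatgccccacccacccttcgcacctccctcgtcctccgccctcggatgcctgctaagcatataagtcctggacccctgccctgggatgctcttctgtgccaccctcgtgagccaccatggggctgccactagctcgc
Reg4 (chr3:98221906-98222205, plus strand): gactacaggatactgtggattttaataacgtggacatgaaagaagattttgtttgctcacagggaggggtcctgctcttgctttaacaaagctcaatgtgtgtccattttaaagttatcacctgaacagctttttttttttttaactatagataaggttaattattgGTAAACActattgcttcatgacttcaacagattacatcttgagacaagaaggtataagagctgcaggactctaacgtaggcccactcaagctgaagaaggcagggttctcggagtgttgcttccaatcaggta
Agr2 (chr12:35992675-35992974, plus strand): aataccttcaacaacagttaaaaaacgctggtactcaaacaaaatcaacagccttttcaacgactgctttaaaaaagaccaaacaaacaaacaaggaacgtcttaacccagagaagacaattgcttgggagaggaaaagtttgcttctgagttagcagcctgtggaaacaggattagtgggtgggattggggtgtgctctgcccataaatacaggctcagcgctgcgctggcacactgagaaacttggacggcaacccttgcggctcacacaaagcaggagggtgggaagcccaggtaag
Muc2 held the E-box letters at position -112 from its start and the TATA letters at -174. Reg4 held the forkhead letters at -83, on the opposite strand, so that they read as the reverse complement above. Fcgbp held an E-box at -208, and the Agr2 window held none of these letters. A STAT6-type palindrome, also searched, was in none of the 4. No pair of these motifs overlapped in the windows. Among all 32851 promoters of the table, the E-box letters were in 16.3%, the TATA letters in 13.6%, the palindrome in 6.95% and the forkhead letters in 3.65%, so that such matches are common and stand only as a description.

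The cKO library held 6723 barcodes with 97364087 unique molecular identifiers (UMIs, 1 per captured RNA molecule), and the WT library 9445 with 116066712. After filtering, 4388 cKO and 7245 WT cells remained, with medians of 6928 and 3723 UMIs. The libraries shared 22 barcodes, 14 of them among kept cells of both. Levels are given as CPM, a gene's summed UMIs scaled to a common total. The deleted gene, Mtch2, had 23.5 CPM in cKO epithelial-like cells and 93.2 CPM in those of WT. Clusters that could not be named held 16.3% of cKO and 42.4% of WT cells, most of them with few UMIs. Among epithelial-like cells that could be assigned a sex from Xist and 4 Y-linked genes, 21.5% were female in cKO and 45.8% in WT. The genotypes therefore cannot be told apart from the mix of mice that each pool held.

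Epithelial-like cells, recognised by pan-epithelial genes, numbered 2004 in cKO and 3072 in WT. They fell into 16 sub-clusters. The one that carried goblet markers, none of them among the 9 members, held 65 cKO and 191 WT cells, with medians of 14887 and 11493 UMIs. Its 10 leading genes were mostly Paneth-type (Ang4, Lyz1 and defensins), with Spink4 and Sval1 among them. Its summed Paneth markers stood at 41931 CPM in cKO and 39694 CPM in WT, and its 20 goblet markers at 3390 CPM in cKO and 3843 CPM in WT, all 20 detected in both. It is therefore called the secretory cluster here and not goblet-like. Tuft markers summed to 23.5 CPM in cKO and 39.7 CPM in WT, with Il25 at 0 in both and Dclk1, Trpm5, Alox5ap and Ltc4s also at 0 in cKO. Enteroendocrine markers summed to 53.8 CPM in cKO and 52.9 CPM in WT, with Neurod1, Pax4 and Gcg at 0 in both and Chga also at 0 in cKO.

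Mucus gene RNA was concentrated in these few cells. Secretory cells held 2.82% of all UMIs of kept cells in cKO and 5.70% in WT, but 72.7% and 82.6% of the UMIs of the 9 members. The 9 genes together made up 2.99% of the summed UMIs of secretory cells in cKO and 3.24% in WT, against 0.0347% and 0.0346% in the other epithelial-like cells. After each cell was thinned to 3000 UMIs, the median secretory cell held UMIs of 5 members in both libraries. Since members were kept out of the clustering but travel with the genes that were in it, this concentration is a description and was not tested.

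Secretory cells were a smaller share of the epithelial-like cells in cKO. They were 3.24% in cKO (Clopper-Pearson interval 2.51 to 4.12) and 6.22% in WT (5.39 to 7.13), a difference of -2.97 percentage points (-4.14 to -1.77). At a finer resolution of 2, the cells with secretory markers split into a sub-cluster led by Ang4, Mptx1 and Spink4, with 64 cKO and 128 WT cells, and a sub-cluster led by defensins, with 4 cKO and 65 WT cells. The first was 3.19% of epithelial-like cells in cKO and 4.17% in WT, and the second 0.200% in cKO and 2.12% in WT, so that most of the difference in share lay in the defensin-led cells. Median depths were 13452 UMIs in cKO and 32590 UMIs in WT in the first, and 31601 UMIs in cKO and 4899 UMIs in WT in the second. Values over all secretory cells therefore compare different mixes of these cells. Ang4, which leads the cluster, itself differed within it, at 1006 CPM in cKO and 2060 CPM in WT. With a count of goblet markers in place of the cluster, at 5 UMIs or more per thinned cell, the shares were 4.08% in cKO and 5.19% in WT, a difference of -1.10 points whose interval (-2.39 to 0.245) includes 0. Of T, B, neutrophil and macrophage-like cells, 0.403% in cKO and 0.743% in WT passed that count. In cells assigned female, secretory cells were 2.83% of epithelial-like cells in cKO and 4.78% in WT, and in cells assigned male 2.42% and 5.45%. The difference in cells assigned female, -1.95 points from 9 cKO secretory cells, had an interval (-4.12 to 0.829) that includes 0. In cells assigned male it was -3.03 points (-4.72 to -1.40).

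Over all epithelial-like cells, 8 of the 9 members were lower in cKO and Retnlb was higher. Their summed level was 1401 CPM in cKO and 2478 CPM in WT, a log2 ratio (cKO over WT) of -0.82 (-0.83 to -0.81). By at least 1.5-fold, 5 members were lower, where 1.14% of 9398 measured genes were, and 1 was higher, where 0.894% of genes were. The median ratio of the 9 was -0.76, against -0.02 over all measured genes. Markers of other secretory lineages moved in the same cells: the 12 Paneth markers summed to 2012 CPM in cKO and 3168 CPM in WT, the 20 goblet markers to 385 CPM in cKO and 523 CPM in WT, and the 10 enteroendocrine markers to 56.8 CPM in cKO and 27.2 CPM in WT, all of them detected in both. Their part in the members' differences was not tested. These pooled sums mix the share of secretory cells with the level inside them. Secretory cells held 3.56% of epithelial-like UMIs in cKO and 6.65% in WT, and the level inside them follows. The part of each in the summed difference was not tested.

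**Figure D1:**
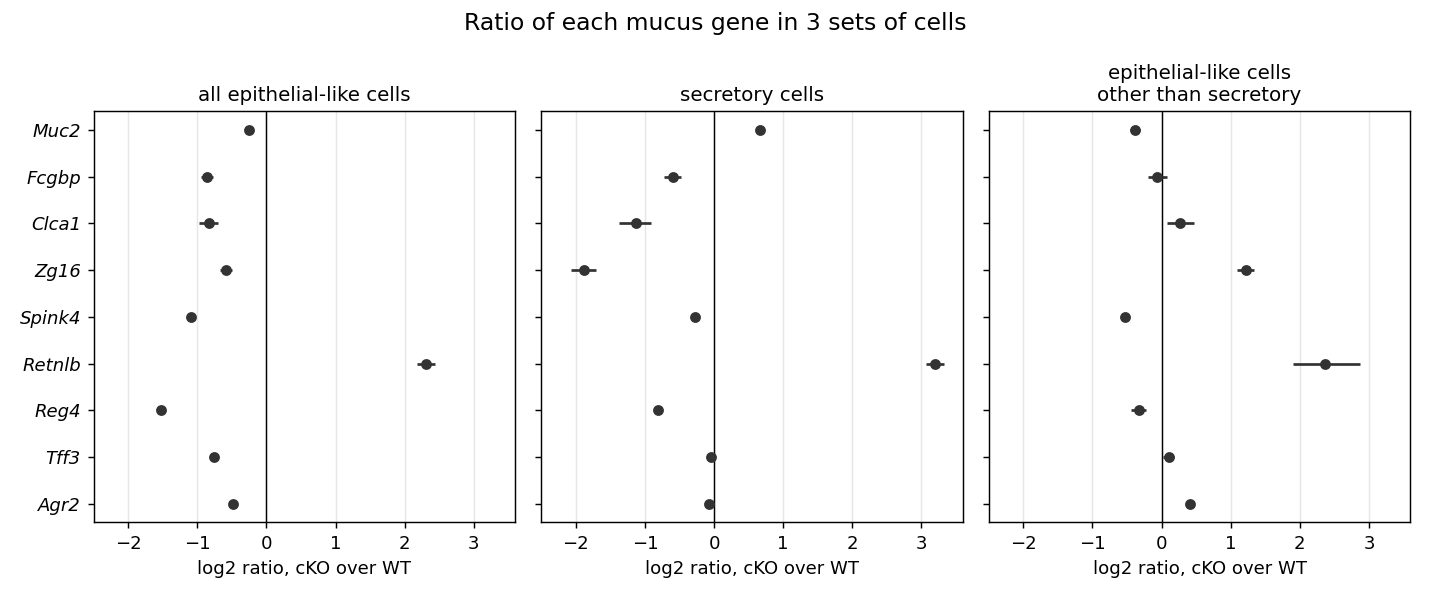
Log2 ratio of cKO over WT for each member in all epithelial-like cells (left), in secretory cells (middle) and in the other epithelial-like cells (right). Points are ratios of CPM and bars are 95% counting intervals, and Retnlb lies right of 0 in each set while Zg16 lies left of 0 in secretory cells and right of 0 in the others.

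Within secretory cells alone, the summed level of the 9 genes was 29934 CPM in cKO and 32429 CPM in WT, a log2 ratio of -0.12 (-0.13 to -0.10). Members differed in direction there. Retnlb and Muc2 were higher in cKO by at least 1.5-fold, and Zg16, Clca1, Reg4 and Fcgbp were lower. The background in so few cells is wide, with 6.59% of 9392 genes higher and 6.46% lower by that fold. Outside the secretory cluster the 9 genes summed to 347 CPM in cKO and 346 CPM in WT, a log2 ratio of 0.00 (-0.02 to 0.03), and 7 of the 9 were measured at 10 CPM or more. Of those 7, 1 was higher in cKO by 1.5-fold (Zg16), where 0.885% of 9382 genes were, and 0 were lower, where 1.0% of genes were.

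Muc2 encodes the gel-forming mucin itself. Its level in secretory cells was 5141 CPM in cKO and 3254 CPM in WT, a log2 ratio of 0.66 (0.63 to 0.69), whereas over all epithelial-like cells it was 221 CPM in cKO and 264 CPM in WT (-0.26, -0.29 to -0.23). The median secretory cell had 1635 CPM in cKO and 926 CPM in WT. A few cells carried much of the cKO sum: 3 of its 65 secretory cells held at least 50% of its Muc2 UMIs, where 11 of 191 WT cells did. Without the 10 highest cells of each library the direction turned, to 1389 CPM in cKO and 1925 CPM in WT (-0.47, -0.54 to -0.40), a step that leaves out a larger share of the cKO cells than of the WT cells. The direction of the summed level thus rests on those cells. The median cell over all secretory cells was higher in cKO, in mixes of finer sub-clusters that differ between the libraries.

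Fcgbp encodes a large protein that binds into the Muc2 network. In secretory cells it stood at 256 CPM in cKO and 387 CPM in WT (log2 ratio -0.60, -0.73 to -0.47). The mean over cells, which gives each cell equal weight, went the other way, 658 CPM in cKO and 439 CPM in WT, and the median cell had 18.2 CPM in cKO and 0 in WT. Fcgbp was detected in 35 of 65 cKO secretory cells and 84 of 191 WT cells. Its direction in secretory cells therefore depended on whether UMIs were summed or cells were averaged.

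Clca1 encodes a secreted protease that cuts Muc2 and loosens the gel. It was the rarest of the structural members, with 72.9 CPM in cKO and 160 CPM in WT secretory cells (-1.13, -1.37 to -0.91), and it was seen in 18 of 65 and 34 of 191 cells. A single WT cell held 329 of the 989 WT secretory UMIs. The mean over cells was 249 CPM in cKO and 273 CPM in WT (-0.13), and in cells chosen by the count of goblet markers the log2 ratio was -0.52, both under 1.5-fold. Outside the secretory cluster the level was 6.38 CPM in cKO and 5.29 CPM in WT.

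Zg16 encodes a small lectin-like protein that binds the peptidoglycan of Gram-positive bacteria. Its summed level was lower in cKO inside the secretory cluster and higher outside it, and both directions rest on few cells. In secretory cells it stood at 120 CPM in cKO and 443 CPM in WT (-1.88, -2.06 to -1.71), and in the other epithelial-like cells at 22.1 CPM in cKO and 9.49 CPM in WT (1.22, 1.09 to 1.34). The mean over secretory cells went the other way, 940 CPM in cKO and 877 CPM in WT (0.10), and in cells chosen by the count of goblet markers the log2 ratio was -0.49. Shallow cells weigh heavily in that mean: 1 cKO cell of 1289 UMIs stood at 39566 CPM, and 1 WT cell of 1331 UMIs at 55597 CPM. Outside the cluster, 2 cKO and 5 WT cells held at least 50% of the Zg16 UMIs, and the 10 highest held 79.8% in cKO and 56.3% in WT. Secretory cells held 301 Zg16 UMIs in cKO and 2735 in WT, and the other epithelial-like cells 1500 in cKO and 823 in WT, so that 15.2% of the Zg16 UMIs of all kept cells were secretory in cKO and 69.8% in WT. In the absorptive-like sub-cluster, which carries Saa1, Car4 and Krt20, Zg16 stood at 221 CPM in cKO, above its level in cKO secretory cells, and at 17.4 CPM in WT (3.66, 3.36 to 3.99).

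That absorptive-like level came from very few cells. One cKO cell held 586 of the 1056 Zg16 UMIs of 209 cells, and a further one held 277. The first also held 172 Clca1, 159 Tff3, 85 Muc2 and 65 Fcgbp UMIs, with 2 of Spink4 and none of Reg4 or Retnlb. In the WT absorptive-like cells, 234 in number, the highest cell held 28 Zg16 UMIs. After thinning, 9.95% of cKO and 5.61% of WT absorptive-like cells had a Zg16 UMI, a difference of 4.34 points whose interval (-1.20 to 10.1) includes 0, against 2.66% of cKO and 2.97% of WT immune cells (T, B, neutrophil and macrophage-like). Unthinned, immune cells had one in 6.27% of cKO and 7.59% of WT cells.

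**Figure D2:**
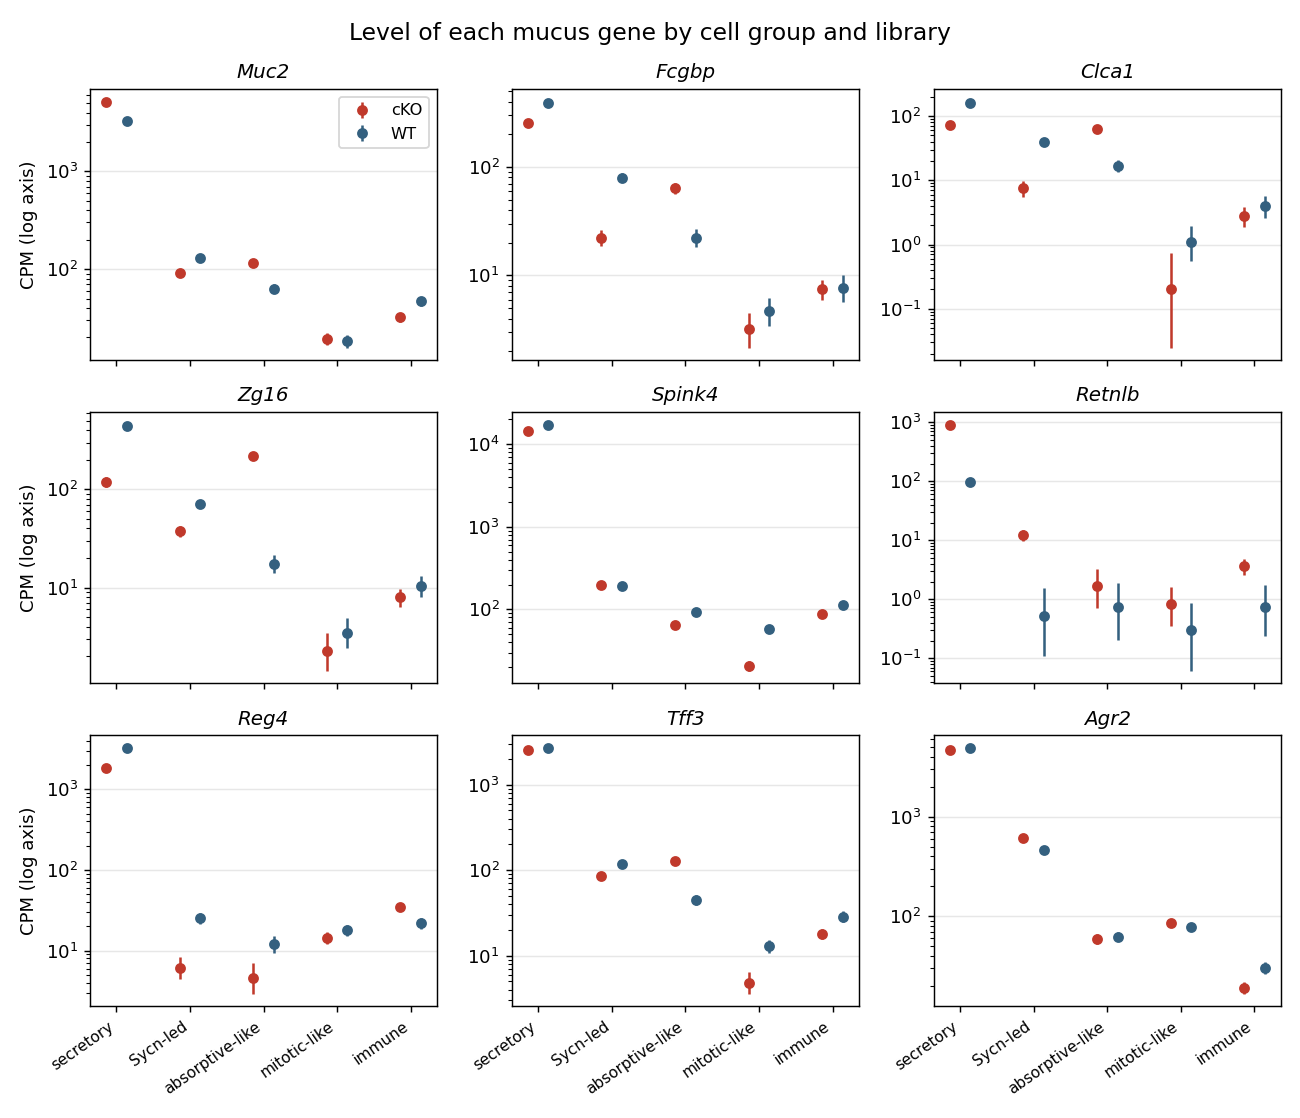
Level of each member in CPM (log axis) in the secretory cluster, the Sycn-led sub-cluster, absorptive-like cells, mitotic-like cells and immune cells, cKO left and WT right in each pair, with 95% Poisson counting intervals. In WT all 9 genes are highest in secretory cells, while in cKO Zg16 is higher in absorptive-like cells (221 CPM) than in secretory cells (120 CPM).

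Tff3, a trefoil peptide that supports repair of the mucosa, and Agr2, a disulfide isomerase of the endoplasmic reticulum needed to make Muc2, had summed secretory levels within 1.5-fold of each other in the libraries. Tff3 was 2581 CPM in cKO and 2668 CPM in WT (-0.05, -0.09 to -0.01), and Agr2 was 4676 CPM in cKO and 4896 CPM in WT (-0.07, -0.10 to -0.04). One cKO cell held 2009 of the Tff3 UMIs. Without the highest cell of each library the log2 ratio of Tff3 was -0.39, and without the 10 highest it was -0.64, over 1.5-fold lower in cKO, while that of Agr2 was -0.44 without the 10 highest. The median secretory cell, in mixes of finer sub-clusters that differ between the libraries, had more of both in cKO: 1736 CPM of Tff3 against 587 CPM in WT, and 2422 CPM of Agr2 against 1615 CPM in WT. In the finer sub-cluster led by Ang4, Mptx1 and Spink4, the summed level of Tff3 was 2824 CPM in cKO and 2870 CPM in WT, and that of Agr2 4929 CPM in cKO and 5467 CPM in WT. Across all epithelial-like cells both were lower in cKO, Tff3 at 120 CPM against 203 CPM in WT and Agr2 at 301 CPM against 423 CPM in WT.

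Agr2 was also found widely outside the secretory cluster. Other epithelial-like cells had 140 CPM in cKO and 105 CPM in WT (0.42, 0.38 to 0.46), above the 18.9 CPM of cKO and 30.3 CPM of WT immune cells, and they held 43.5% of the library's Agr2 UMIs in cKO and 22.2% in WT. The level was highest, after the secretory cluster, in the sub-cluster led by Sycn, Hao2 and Gsdmc4, at 619 CPM in cKO and 464 CPM in WT (0.42, 0.34 to 0.49). There the RNA was spread over many cells: after thinning, 65.7% of 137 cKO and 60.6% of 137 WT cells had an Agr2 UMI, against 5.80% of cKO and 12.9% of WT immune cells (unthinned, 127 of 138 and 126 of 138 cells against 185 of 1324 and 178 of 711 immune cells). Absorptive-like cells had 59.4 CPM of Agr2 in cKO and 62.5 CPM in WT, with an interval of the log2 ratio (-0.31 to 0.16) that includes 0.

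Spink4, a protease inhibitor of the Kazal type, was the most abundant member. It stood at 14348 CPM in cKO and 17284 CPM in WT secretory cells (-0.27, -0.29 to -0.25), and at 588 CPM in cKO and 1256 CPM in WT epithelial-like cells as a whole (-1.10, -1.11 to -1.08). It was the leading member in 35 of 65 cKO secretory cells (53.8%) and in 143 of 191 WT cells (74.9%), and Muc2 led in 14 cKO and 21 WT cells. In all but a few secretory cells it was detected, in 62 of 65 cKO and 187 of 191 WT cells. Reg4, a small secreted protein of the Reg family of C-type lectins, was lower in cKO in secretory cells, at 1857 CPM against 3240 CPM in WT (-0.80, -0.85 to -0.76), and in epithelial-like cells as a whole, at 81.9 CPM against 234 CPM in WT (-1.52). The median secretory cell had 692 CPM of Reg4 in cKO and 1235 CPM in WT. These medians and the counts of leading members also span mixes of finer sub-clusters that differ between the libraries.

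Under each alternative tried in secretory cells the log2 ratio of Reg4 was below 0, between -0.49 as the mean over cells and -2.03 in cells assigned female. The share of thinned secretory cells with a Reg4 UMI was 68.6% in cKO and 81.5% in WT, a difference of -12.9 points whose interval (-28.4 to 1.19) includes 0, as did those of the other 8 members. Its UMIs were less confined to single cells than those of Muc2, with 6 of 65 cKO and 13 of 191 WT secretory cells holding at least 50% of them.

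Retnlb encodes a secreted cysteine-rich protein (RELM beta) that goblet cells make during type 2 immune responses and that kills bacteria. It was the only member higher in cKO over all epithelial-like cells, at 34.1 CPM against 6.91 CPM in WT (2.30, 2.18 to 2.43), and within secretory cells it stood at 882 CPM in cKO and 96.3 CPM in WT (3.19, 3.06 to 3.33). One cKO cell with 126009 UMIs held 1434 Retnlb UMIs, 59.6% of all those in cKO epithelial-like cells, and the second cell held 16.3%. The highest WT cell held 280, 43.6% of the WT UMIs. Retnlb was detected in 18 of 65 cKO secretory cells and 35 of 191 WT cells, and after thinning in 6 of 51 and 17 of 162.

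Without the single highest cell of each library the secretory levels were 327 CPM in cKO and 52.5 CPM in WT (2.64). Without the 10 highest cells they were 4.53 CPM in cKO, from 8 UMIs, and 12.4 CPM in WT, from 65 UMIs (-1.37). The direction of Retnlb in secretory cells thus rests on a few cells. Over all epithelial-like cells, leaving out the 10 highest left 1.77 CPM in cKO and 1.11 CPM in WT (0.67, 0.29 to 1.07). The 3 highest cKO cells were also the 3 highest for Muc2, with 2271, 3053 and 1532 UMIs of it, and they held 0, 2 and 84 Tff3 UMIs. Immune cells had 3.63 CPM of Retnlb in cKO and 0.74 CPM in WT, and the other epithelial-like cells 2.81 CPM and 0.54 CPM, so that the gene was at its immune-cell level outside the secretory cluster in both libraries.

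**Figure D3:**
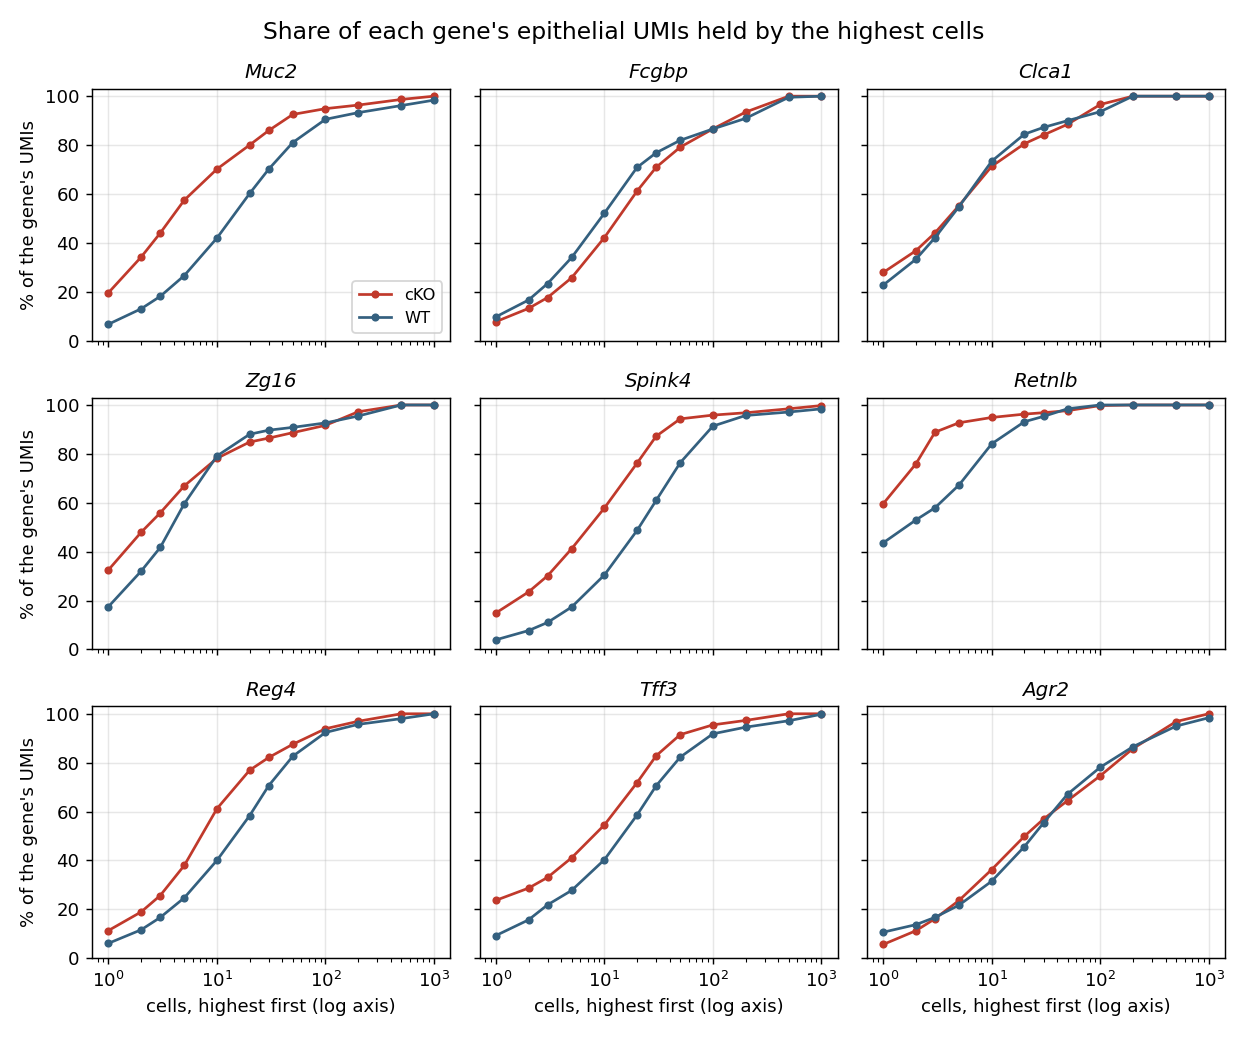
Percent of each member's UMIs in epithelial-like cells (vertical axis) that the highest cells hold, for the highest 1 to 1000 cells (log axis), cKO in red and WT in blue. The highest 10 cells hold 94.9% of Retnlb UMIs in cKO and 84.1% in WT, but 36.3% and 31.5% of Agr2 UMIs.

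Concentration differed between members and libraries. The 10 highest epithelial-like cells held 70.2% of Muc2 UMIs in cKO and 42.0% in WT, 57.8% and 30.4% of Spink4, and 61.2% and 40.1% of Reg4. For Zg16 (78.2% and 79.1%) and Clca1 (71.3% and 73.4%) the shares of the libraries were close. With 65 cKO secretory cells against 191 in WT, the same 10 cells are a larger part of the cluster in cKO.

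**Figure D4:**
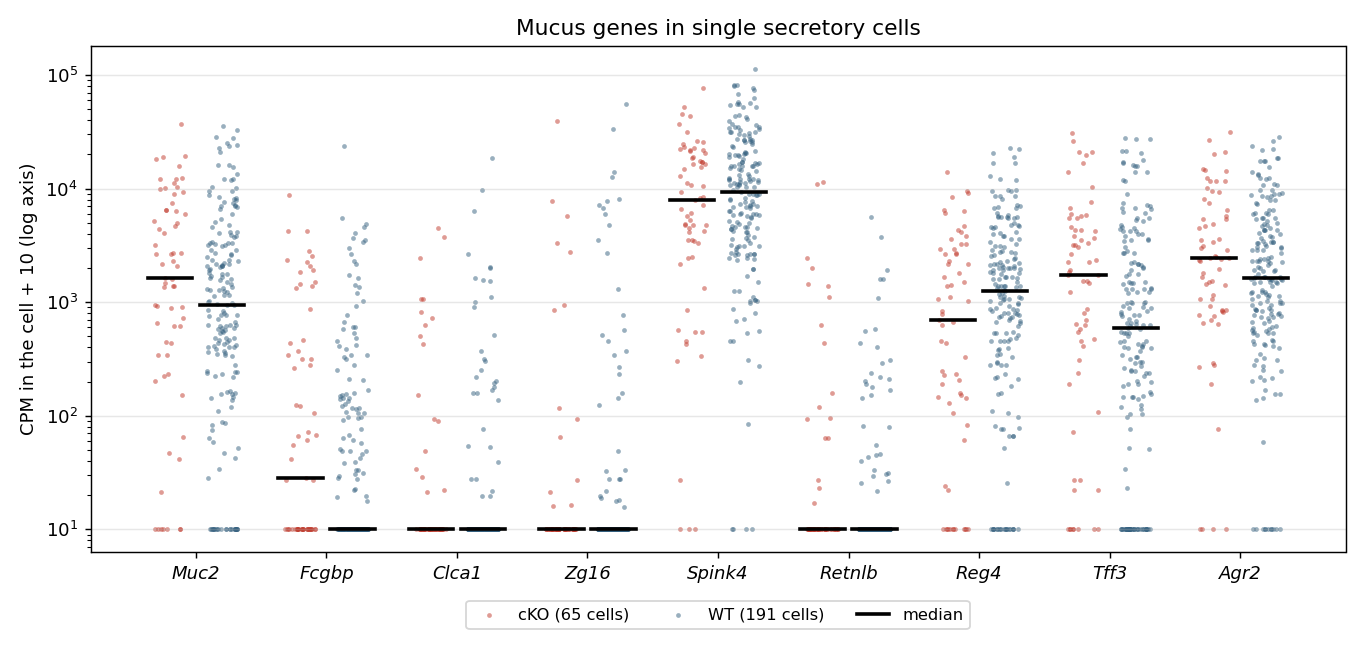
CPM of each member in every secretory cell (log axis, 10 CPM added so that cells at 0 show), cKO left and WT right, with black lines at the medians. Spink4 is present in nearly every cell of both libraries, and most cells lie at 0 for Clca1, Zg16 and Retnlb.

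Some members ranked together in single secretory cells of both libraries. Over the 51 cKO and 162 WT secretory cells with at least 3000 UMIs, thinned to that number, Spink4 ranked with Agr2 (Spearman's rho 0.57 in cKO and 0.66 in WT) and with Reg4 (0.54 and 0.65), whereas Reg4 with Agr2 gave 0.17 in cKO and 0.44 in WT. Fcgbp ranked with Tff3 (0.40 and 0.54) and with Clca1 (0.41 and 0.38), and Clca1 with Zg16 (0.38 and 0.69). Few cells lie behind the pairs with Clca1, which was found in 9 cKO and 16 WT cells, while Zg16 was found in 5 and 16. Both Clca1 and Zg16 were found in 3 cKO and 11 WT cells, and both Fcgbp and Clca1 in 6 and 10. Fcgbp and Reg4 ranked against each other (-0.25 and -0.31). Of 19 cKO cells with an Fcgbp UMI, 17 also had Tff3 and 0 had Retnlb, where 40 and 6 of all 51 cells did. Of 37 such WT cells, 35 had Tff3 and 1 had Retnlb, where 110 and 17 of all 162 cells did. Cells of a library share its free RNA and its preparation, so these are descriptions.

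Fcgbp, Clca1, Zg16 and Tff3 also went together across 28 groups, the sub-clusters of epithelial-like cells with at least 50 cells of a library. Without the 2 secretory groups, Pearson's r of their log2 levels lay between 0.84 and 0.93 over 26 groups, while Reg4 did not follow them (r from -0.10 to 0.11). Muc2 went with these 4 as well, at r from 0.74 to 0.84, and Spink4 less closely, at r from 0.45 to 0.71. Outside the members, the genes whose pattern over the 28 groups was most like the sum of the 9 were Sval1 (r = 0.96), Ccl6, Spink1, Klk1, Spdef, Tpsg1, Atoh1, Defa3, Ang4 and Defa32 (r = 0.89). Sval1, Klk1, Spdef, Tpsg1 and Atoh1 were among the goblet markers used to recognise secretory cells, and Defa3 was in the Paneth marker list. Points share their library and depth, and single cells weigh heavily in some of them. Among WT cells of the Sycn-led sub-cluster, 1 cell held at least 50% of the Fcgbp UMIs. The same held for Clca1, Zg16 and Tff3, though not with the same cell for each gene. Among cKO absorptive-like cells 1 cell held at least 50% for Clca1 and for Zg16. Whether the r values depend on such cells was not tested.

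Thinned shares outside the secretory cluster were mostly near or below those in immune cells, which free RNA also reaches. After thinning, Spink4 was found in 14.2% of the other epithelial-like cells in cKO and 24.9% in WT, against 19.3% and 37.1% of immune cells. Muc2 was found in 6.96% of cKO and 11.2% of WT cells, against 10.8% and 17.2% of immune cells. Tff3 and Reg4 were also at or near their immune-cell shares, with 4.73% and 8.41% against 5.96% and 10.7% for Tff3, and 3.64% and 5.44% against 3.55% and 8.17% for Reg4. Thinning takes more from the deeper epithelial-like cells than from immune cells, so these shares cannot tell free RNA from low expression. They are not read as expression or as a difference between genotypes. Some single cells did hold many UMIs: 1 WT cell outside the secretory cluster held 1249 of Muc2 and 1374 of Spink4. Unthinned, Spink4 was in 53.5% of cKO and 74.2% of WT other epithelial-like cells and in 38.4% and 65.7% of immune cells, and Muc2 in 33.5% and 42.8% against 23.0% and 32.8%. Thinning left out 374 cKO and 325 WT other epithelial-like cells and 83 cKO and 38 WT immune cells. Median depths of the cells kept were 37545 UMIs in cKO and 28092 UMIs in WT for other epithelial-like cells, and 6650 UMIs in cKO and 7019 UMIs in WT for immune cells. Agr2 was the exception after thinning, in 18.8% of cKO and 18.3% of WT other epithelial-like cells against 5.80% and 12.9% of immune cells.

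The direction of several members depended on the sex assigned to the cells. In epithelial-like cells assigned female, Zg16 stood at 112 CPM in cKO and 39.7 CPM in WT, and in cells assigned male at 13.96 CPM in cKO and 41.0 CPM in WT. Clca1 stood at 24.7 CPM in cKO and 10.49 CPM in WT cells assigned female, and at 4.57 CPM in cKO and 14.9 CPM in WT cells assigned male. Muc2 and Agr2 were likewise higher in cKO in cells assigned female and lower in cells assigned male. Spink4, Reg4 and Tff3 were lower and Retnlb was higher in cKO in both. Cells of either sex come from different mice, so this compares some mice of each pool with the others, and only 9 cKO secretory cells were assigned female. A single cKO cell held 32.5% of the Zg16 and 27.9% of the Clca1 UMIs of cKO epithelial-like cells. The directions of these 2 genes by sex can therefore rest on few cells.

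**Figure D5:**
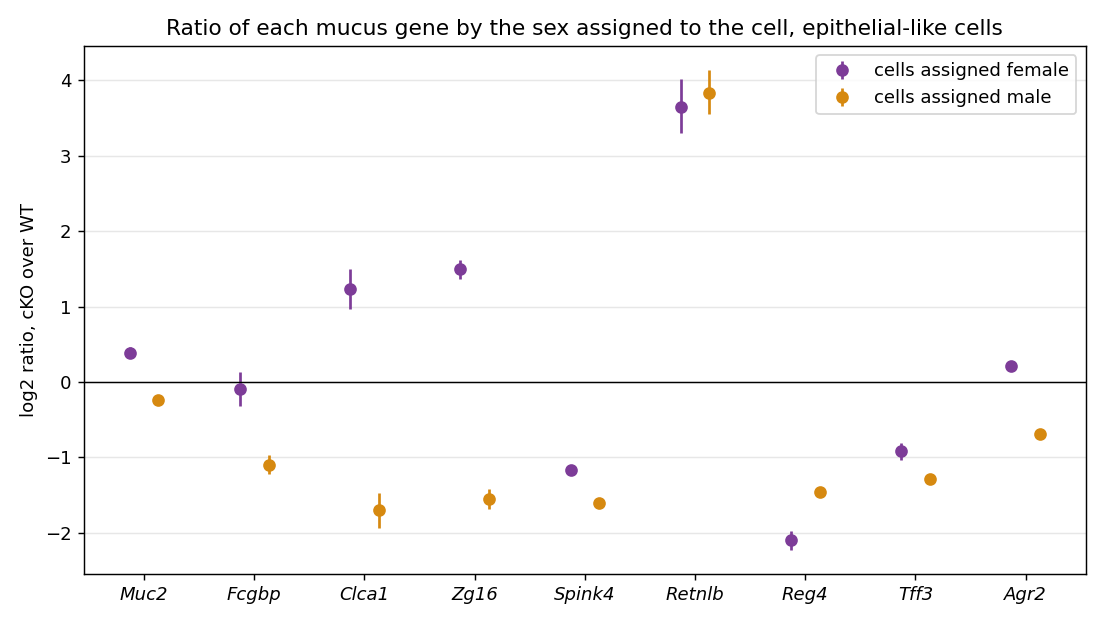
Log2 ratio of cKO over WT of each member in epithelial-like cells assigned female and assigned male, with 95% counting intervals. Muc2, Clca1, Zg16 and Agr2 lie above 0 in cells assigned female and below 0 in cells assigned male, and Retnlb lies above 0 in both.

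Other genes of mucus production were read in epithelial-like cells against the same share of all measured genes, 0.894% higher and 1.14% lower by 1.5-fold. Of 20 regulators of goblet fate and secretory stress, 14 were measured, 3 higher and 11 lower in cKO, none by 1.5-fold, with a median log2 ratio of -0.23. Ern2, the goblet cell sensor of endoplasmic reticulum stress, was 10.9 CPM in cKO and 14.6 CPM in WT. Spdef, a transcription factor of goblet cell maturation, and Atoh1 lay under the 10 CPM set for measured genes, with Spdef at 4.96 CPM in cKO and 8.79 CPM in WT (-0.82, -1.01 to -0.64) and Atoh1 at 3.79 CPM in cKO and 5.94 CPM in WT (-0.65, -0.87 to -0.44). In secretory cells Spdef was 104 CPM in cKO and 107 CPM in WT (-0.05, -0.26 to 0.16), and Atoh1 was 86.0 CPM in cKO and 70.9 CPM in WT (0.28, 0.04 to 0.52). Of these 20 regulators, 7 were among the markers used to recognise the cluster, Spdef, Atoh1 and Ern2 included. Of 30 genes of mucin glycosylation and sulfation, 23 were measured, 12 higher and 11 lower, none by 1.5-fold, with a median of 0.04. Of 22 genes of granule exocytosis and anion secretion, 15 were measured, 2 higher and 13 lower, 1 of them by 1.5-fold (Syt7, a calcium sensor of exocytosis, 7.50 CPM in cKO and 12.1 CPM in WT), with a median of -0.15. The cluster markers also included 4 of these 22 genes and 1 of the 30 of glycosylation and sulfation.

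Of 28 other mucins and goblet products, 20 were measured, 10 higher and 10 lower, with 2 higher and 4 lower by 1.5-fold, a larger part than among all measured genes, and a median of 0.02. The 4 lower ones were Ang4, an antimicrobial ribonuclease, at 38.3 CPM in cKO and 143 CPM in WT (-1.90), Sval1 at 62.5 CPM and 124 CPM (-0.98), Itln1, a lectin that binds microbial sugars, at 116 CPM and 201 CPM (-0.79), and Guca2a, the guanylin precursor, at 50.8 CPM and 76.4 CPM (-0.59). Sval1 was among the goblet markers used to recognise the cluster. Itln1 was in the Paneth marker list, and Ang4 was counted above with the Paneth-type genes. The 2 higher ones were Muc1, a membrane mucin, at 12.9 CPM in cKO and 7.45 CPM in WT (0.80), and Tgm3, a transglutaminase that cross-links mucus, at 24.2 CPM in cKO and 15.9 CPM in WT (0.61). Muc1, Tgm3, Syt7, Ern2, Spdef and Atoh1 fall outside the rule for naming genes of these lists and were chosen after their values were seen. Within secretory cells Ang4 (-1.03) and Guca2a (-0.96) were lower in cKO, while Itln1 was 2510 CPM in cKO and 2237 CPM in WT (0.17, 0.12 to 0.21).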

How the data were processed

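The deposited files are 10x matrices of UMI counts per gene and cell, which per the file headers come from Cell Ranger 7.2.0, while the submitters' processing notes name mm10 and Seurat 3.0. No normalised values were used. Barcodes with under 500 genes or over 25% mitochondrial UMIs were left out, and Scrublet marked doublets at 0.8% per 1000 barcodes (362 in cKO, 714 in WT), which were removed. Clustering used both libraries jointly and left out the 9 members, Mtch2, sex-linked marker genes and mitochondrial, immunoglobulin and T cell receptor genes (scanpy 1.11.5, leidenalg 0.10.2, 2000 variable genes, 30 components, 20 neighbours, resolution 1, seed 0), and epithelial-like cells were clustered again. Clusters were named from marker lists that hold no member. The goblet-like class of the plan came out led by Paneth-type genes and is reported as the secretory cluster.

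Levels are summed UMIs as CPM with 95% exact Poisson intervals. A ratio has 0.5 counts added to each side and a conditional binomial interval without them, and shares have Clopper-Pearson intervals. UMIs of 1 library are not independent animals, so these intervals cover counting error only. A gene is called measured where 1 of the libraries reaches 10 CPM, and as higher or lower at 1.5-fold. Outside the members, genes of the lists are named at 50 CPM or more with a 1.5-fold difference in epithelial-like cells whose interval excludes 0, and genes of like pattern are the 10 highest by Pearson's r of log2(CPM + 1). Shares of cells with a UMI were taken after thinning each cell to 3000 UMIs. Immune cells, which were shallower before thinning, served as a guide to free RNA. The ratio script was tested on simulated data. Cells were assigned female with Xist UMIs and no Y-linked ones, and male with the reverse. With 1 library per genotype no test was made. The members and lists were chosen with earlier results of these data known. Alternatives covered scaling, weighting, cell filters, resolution, sex and leaving out the highest cells.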

Additional observations from a re-analysis of the deposited data

Results flagged for a closer look

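For 4 members the difference between cKO and WT had opposite signs by the sex assigned to epithelial-like cells. The log2 ratio for Muc2 was 0.39 in female and -0.23 in male cells, and in the same order it was 1.24 and -1.70 for Clca1, 1.49 and -1.55 for Zg16, and 0.21 and -0.70 for Agr2. For 5 members the sign differed between secretory cells and the other epithelial-like cells: 0.66 and -0.38 for Muc2, -1.13 and 0.27 for Clca1, -1.88 and 1.22 for Zg16, -0.05 and 0.10 for Tff3, and -0.07 and 0.42 for Agr2. Single cells weigh heavily in the cKO values of Zg16 and Clca1. Few cells weigh on both Muc2 ratios too. Outside the secretory cluster, 1 WT cell held 1249 Muc2 UMIs, and the 10 highest WT cells held 53.2% of them. Within secretory cells the Muc2 ratio turned to -0.47 without the 10 highest cells of each library. With 1 library per genotype, neither difference was tested.

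A cluster outside every named class, with 2 cKO and 33 WT cells, held more Fcgbp and Clca1 than the WT secretory cells did. In its WT cells Fcgbp stood at 1564 CPM, against 387 CPM in WT secretory cells, and Clca1 at 959 CPM, against 160 CPM. Clca1 and Fcgbp were among its leading genes.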

How the results depend on the processing

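No paired analysis was possible because each genotype is 1 library. The median log2 ratio of the 9 genes in epithelial-like cells (-0.76) was -0.72 when mitochondrial, ribosomal, immunoglobulin and haemoglobin genes were kept out of the scaling, -0.29 as a mean over cells, -0.29 with equal weight for each subtype, -1.01 with no doublets removed, -1.17 with a minimum of 1000 genes and -1.29 in cells assigned male. It was -0.87 without the highest cell of each gene and -0.72 without the 10 highest, both chosen after seeing the data. It turned to 0.10 without the secretory cluster and to 0.21 in cells assigned female. Single members turned too. Without the secretory cluster Clca1 was 0.27, Zg16 1.22, Tff3 0.10 and Agr2 0.42. In cells assigned female Muc2 was 0.39, Clca1 1.24, Zg16 1.49 and Agr2 0.21, and the exocytosis list's median 0.057. With equal subtype weights Muc2 was 0.52. In secretory cells the mean over cells gave Fcgbp 0.58, Zg16 0.10, Tff3 0.61 and Agr2 0.41, and leaving out 10 cells gave Muc2 -0.47 and Retnlb -1.37. The share of epithelial-like cells with 3 or more Tff3 UMIs after thinning differed by 0.027 points. Counting goblet markers per cell moved the difference in secretory share (-2.97 points) to -1.10. The causes were not tested. In epithelial-like cells Spink4, Reg4 and Fcgbp stayed lower and Retnlb higher in cKO under each alternative run, with Fcgbp at -0.06 without the secretory cluster. With no doublets removed, Zg16 was -2.13 and Clca1 -1.75, and with a minimum of 1000 genes -2.48 and -1.96. In these runs 412 and 397 of 443 absorptive-like cells fell into unnamed clusters, as did 181 and 261 of the 276 cells of the Sycn-led and 223 and 245 of the 348 of the Ly6m-led sub-cluster. Only 65 cKO secretory cells limit every value taken in them.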

Other observations

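Barcodes with few UMIs carried the same 9 genes. The largest unnamed cluster, with 491 cKO and 2503 WT cells and medians of 721 and 734 UMIs, had 1078 CPM of Spink4 in cKO and 1209 CPM in WT, and 312 CPM of Muc2 in cKO and 443 CPM in WT. Retnlb there stood at 58.4 CPM in cKO and 4.33 CPM in WT, and Reg4 at 110 CPM in cKO and 224 CPM in WT.

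In the 33 WT cells of the unnamed cluster led by Clca1, Muc2 stood at 2148 CPM and Tff3 at 2440 CPM, with Spink4 at 917 CPM, Reg4 at 62.6 CPM and no Retnlb UMI. Its 2 cKO cells were too few for a level.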
